A study of Mus musculus with 6 samples.

Results

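The genes described here are the ligands and receptors of 4 axon guidance systems: the semaphorins with their plexin and neuropilin receptors, the Slits with the Robo receptors, the netrins with Dcc and the Unc5 receptors, and the ephrins with the Eph receptors. The set was picked with earlier results of these data known, and its members were then taken by symbol alone. In the count matrices 69 of the 50559 genes matched. Of these, 35 are ligands (20 semaphorins, 3 Slits, 4 netrins and 8 ephrins) and 34 are receptors (9 plexins, 2 neuropilins, 4 Robos, 5 netrin receptors and 14 Eph receptors). Each of the 69 had at least 1 UMI, a unique molecular identifier that counts 1 captured transcript, in some library.

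The samples were uterine tubes (oviducts) of adult female C57BL6 mice in estrus, with no genetic change or treatment named, cut into a distal and a proximal section. Single cells of each section were sequenced in 3 distal libraries (groups 1, 2 and 3) and 3 proximal libraries (groups 2, 3 and 4), and every library pooled tubes of a group of mice whose number is not given in the sources used here. Tests over libraries therefore measure the spread between these pools. The 6 libraries held 20731 barcodes and 91560090 UMIs, from 426707 UMIs in proximal 3 to 32488145 in distal 1, and 18466 cells were kept. Proximal libraries were smaller (325 to 1133 cells, against 4115 to 6652), and median UMIs per barcode were 733 and 1081 in proximal 3 and 4 against 2895.5 to 4580.5 in the other libraries. The libraries shared 211 barcode sequences.

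Cells were clustered without the 69 genes and named from marker genes, so each class stands for cells that are fibroblast-like, smooth muscle-like and so on. The classes used were fibroblasts (8082 cells), non-ciliated epithelium (4122), ciliated epithelium (2040), smooth muscle (1886), blood endothelium (571), pericytes (184) and lymphatic endothelium (55). Of the tissue's defining genes, all 12 ciliary markers and all 9 epithelial markers were detected in the ciliated sums of every library used. A further 300 epithelial cells whose leading genes included collagens were left out, and they made up 0.451% to 4.06% of the cells in distal and 0.121% to 0.353% in proximal libraries.

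Guidance receptors turn contact with a ligand into local change of the cytoskeleton, and most of them were first described in growing axons. Class 3 semaphorins are secreted and bind a neuropilin with an A-type plexin, other semaphorins are membrane-bound and bind plexins directly, Slits are secreted ligands of Robo receptors, and netrins attract through Dcc or repel through Unc5 receptors. Ephrins and Eph receptors are both held at the cell surface and signal where cells touch. Outside the nervous system the same proteins act in blood and lymphatic vessel growth and in the sorting of cells within epithelia and their stroma.

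Promoter sequences are shown for 4 of the 5 members that differed between the sections in fibroblasts. That of Dcc, the only 1 of the 5 whose call held without any single library, is not shown. They run from 250 bases before to 50 bases after the RefSeq start on GRCm38.p6, 300 bases each, at chr16:60605482-60605781 on the minus strand for Epha6, chr16:21204545-21204844 on the plus strand for Ephb3, chr5:84417333-84417632 on the minus strand for Epha5 and chr5:14025026-14025325 on the plus strand for Sema3e. The count files carry no coordinates. Capitals mark matches, on either strand, to 5 short motifs spelled out after the sequences, and no match overlapped another.
Epha6: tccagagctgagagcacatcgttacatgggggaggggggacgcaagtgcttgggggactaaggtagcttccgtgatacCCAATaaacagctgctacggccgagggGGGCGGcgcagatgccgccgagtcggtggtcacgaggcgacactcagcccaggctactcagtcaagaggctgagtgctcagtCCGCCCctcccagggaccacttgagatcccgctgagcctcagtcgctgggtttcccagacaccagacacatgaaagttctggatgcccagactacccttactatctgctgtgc
Ephb3: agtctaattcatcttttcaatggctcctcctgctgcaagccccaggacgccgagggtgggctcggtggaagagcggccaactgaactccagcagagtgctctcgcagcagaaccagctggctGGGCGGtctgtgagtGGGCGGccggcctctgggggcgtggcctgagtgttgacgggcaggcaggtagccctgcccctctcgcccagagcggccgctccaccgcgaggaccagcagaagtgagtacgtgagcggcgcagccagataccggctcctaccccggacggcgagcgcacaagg
Epha5: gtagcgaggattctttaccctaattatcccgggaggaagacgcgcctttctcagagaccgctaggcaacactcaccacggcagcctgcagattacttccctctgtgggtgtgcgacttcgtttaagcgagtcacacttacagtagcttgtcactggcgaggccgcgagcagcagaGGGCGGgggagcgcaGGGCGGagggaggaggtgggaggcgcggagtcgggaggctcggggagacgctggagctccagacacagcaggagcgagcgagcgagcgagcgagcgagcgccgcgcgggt
Sema3e: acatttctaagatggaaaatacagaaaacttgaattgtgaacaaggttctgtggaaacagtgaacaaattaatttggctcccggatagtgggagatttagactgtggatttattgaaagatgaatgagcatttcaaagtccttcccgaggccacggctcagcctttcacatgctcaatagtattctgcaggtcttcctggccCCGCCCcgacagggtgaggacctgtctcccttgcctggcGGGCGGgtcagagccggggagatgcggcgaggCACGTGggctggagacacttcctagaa
Each of the 4 held 2 matches to the GC box, spelled GGGCGG, which was present in 35.9% of the 27025 promoters of the same length in the table. Epha6 also held 1 match to the CCAAT box, which takes its name from its letters and was found in 37.9% of promoters. Sema3e held 1 match to an E-box of the letters CACGTG, found in 7.24% of promoters. The TATA box was searched as TATAAA (14.2% of promoters) and had no match in these windows. The nuclear receptor half-site AGGTCA (16% of promoters) had none either. CG pairs numbered 15 in Epha6, 23 in Ephb3, 30 in Epha5 and 11 in Sema3e, against a median of 7 over all promoters. These letters describe the windows and say nothing about which factors bind there.

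Levels are given as CPM, the UMIs of a gene in a cell class of a library, scaled to a class total of 1e6, and are compared for 1 gene at a time across classes, as a description without a test. Of the 69 genes, 45 reached 20 CPM on average over the distal libraries in at least 1 of the 7 classes, 25 ligands and 20 receptors. The other 24 peaked between 0.08 and 18.5 CPM. Blood endothelium was the highest class for 12 of the 45 and lymphatic endothelium for 11, followed by fibroblasts with 6, pericytes and ciliated epithelium with 5 each, smooth muscle with 4 and non-ciliated epithelium with 2. Only 7 of the 12 and 7 of the 11 had no overlap of distal libraries with the next class. Such counts over all genes are not given here, so these cannot be read as particular to the members. Lymphatic endothelium was counted in 2 distal libraries, where 3 counts over both equal 23.8 CPM, above the 20 CPM limit. Mesothelial cells, not among the 7 classes and also counted in 2 distal libraries, had a distal mean above the highest of the 7 for 7 of the 45 genes (Efna2, Efna5, Efnb1, Epha3, Plxna4, Sema3c and Slit3). Ligands and receptors were spread over the classes in like numbers, for example 7 ligands and 5 receptors in blood endothelium and 3 of each in fibroblasts. On TMM-scaled CPM, the level in the highest class moved by more than 1 SD for 11 of the 45, and 40 of the 45 kept their highest class. Those that changed class were Nrp1, Epha3 and Ephb1, which were then highest in fibroblasts, Nrp2, then highest in blood endothelium, and Sema4b, then highest in non-ciliated epithelium.

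**Figure D1:**
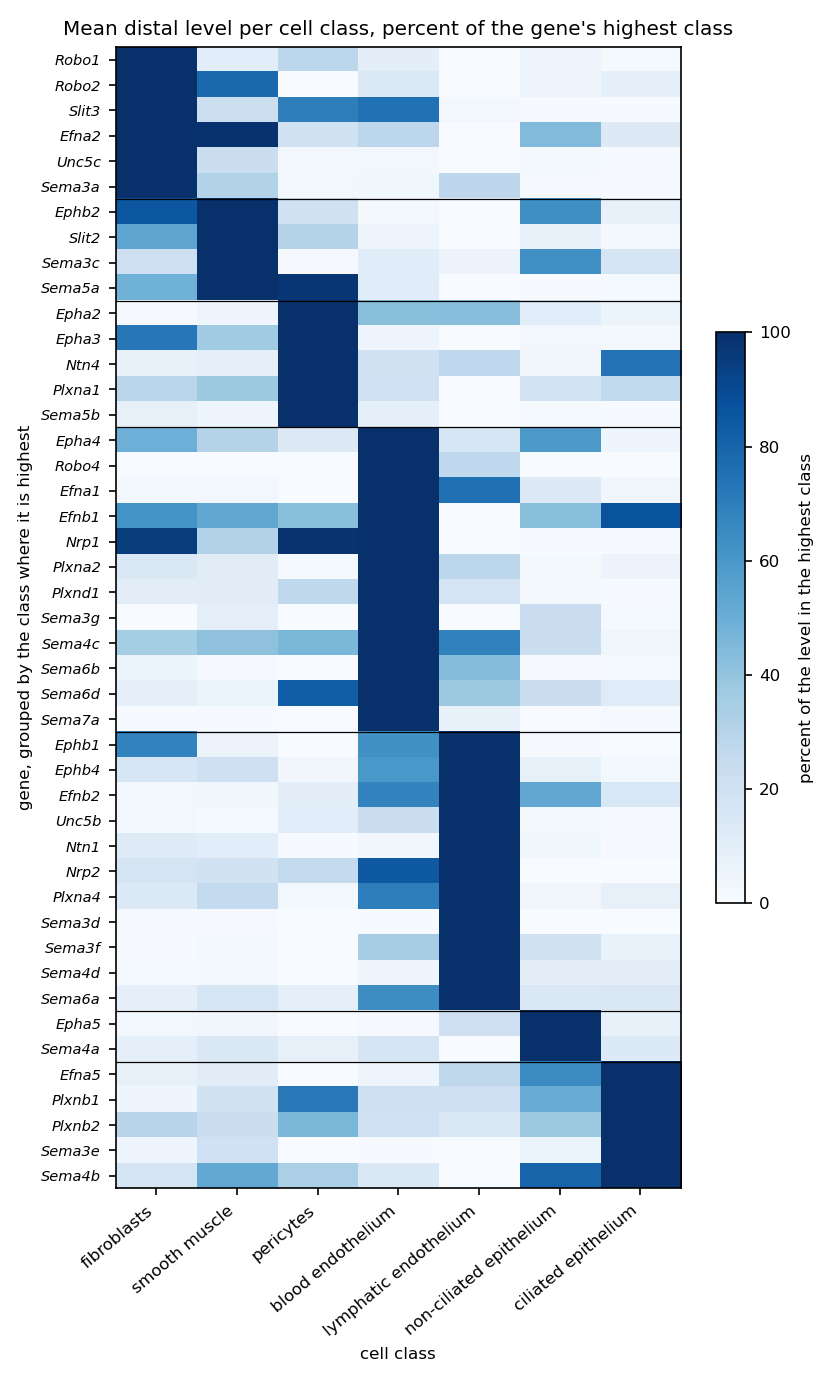
Mean level of the 45 genes that reached 20 CPM in the distal libraries, by cell class (x axis) and gene (y axis), as a percent of each gene's own highest class. Each block of rows is dark in the class that names it, and the endothelial blocks hold 23 of the 45 genes. The share of all genes that peak in these classes is not given here.

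The Slit ligands were highest in muscle and stroma. Slit2 was highest in smooth muscle, at 658, 573 and 614 CPM in distal libraries 1, 2 and 3, and fibroblasts followed at 411, 279 and 299 CPM. All distal muscle values lay above all distal fibroblast values. Slit3 was at 348, 229 and 191 CPM in fibroblasts and at 176, 215 and 180 CPM in blood endothelium, 2 ranges that overlapped. Lymphatic endothelium, with 35 cells in 2 distal libraries, had no Slit2 UMI. Of the receptors, Robo1 was at 195 ± 33.8 CPM in fibroblasts (SD, n = 3) against 54.8 ± 23.1 in pericytes, with no overlap. Robo2 was at 39.1 ± 10.6 CPM in fibroblasts and 30.4 ± 12.5 in smooth muscle, which overlapped. Robo4, a Robo family member known from vascular endothelium, was at 227, 167 and 233 CPM in distal blood endothelium and had 0 UMIs in the fibroblasts of every library.

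The 6 secreted semaphorins named here were highest in 5 different classes, with Sema3d and Sema3f both highest in lymphatic endothelium. Sema3a, a neuropilin 1 ligand, was at 388 ± 53.8 CPM in distal fibroblasts and 122 ± 26.9 CPM in smooth muscle. Sema3c was at 123 ± 34.8 CPM in smooth muscle and overlapped non-ciliated epithelium at 77.4 ± 18.3 CPM. Sema3d was at 459 and 278 CPM in the 2 distal libraries with enough lymphatic cells and at most 5.98 CPM in any distal library of the other 6 classes. Sema3e, which binds plexin D1 directly, was at 108 ± 23.4 CPM in ciliated epithelium against 21.6 ± 10.9 in smooth muscle. Sema3f reached 164 ± 55.6 CPM in lymphatic endothelium (n = 2) and Sema3g 68.5 ± 28.3 CPM in blood endothelium, and neither overlapped its next class.

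Membrane-bound semaphorins divided in the same way between vessel, muscle and epithelial classes. Sema7a, which is anchored to the membrane by a lipid, was at 196 ± 56 CPM in blood endothelium against 13.9 ± 19.7 in lymphatic endothelium. Sema6b was at 122 ± 6.57 CPM in blood endothelium. Sema6a was at 644 ± 308 CPM in lymphatic endothelium and 415 ± 66.3 CPM in blood endothelium, which overlapped. Sema5b was at 152, 123 and 114 CPM in pericytes and at most 16 CPM in the distal blood endothelium that followed. Sema5a did not separate smooth muscle (502 ± 158 CPM) from pericytes (489 ± 86.1 CPM). In the epithelium, Sema4a was at 79.6, 74.8 and 78.1 CPM in non-ciliated cells, against 12.8 ± 0.863 CPM in blood endothelium.

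Among the plexins and neuropilins, Plxnd1 (214 ± 19.3 CPM) and Plxna2 (266 ± 65.4 CPM) were highest in blood endothelium with no overlap. Plxna4 was at 236 ± 58.9 CPM in lymphatic endothelium (n = 2) against 165 ± 11.7 CPM in blood endothelium. Plxnb2, a receptor for class 4 semaphorins, was at 237 ± 11.8 CPM in ciliated epithelium against 109 ± 94.3 CPM in pericytes. Plxnb3 had 115 UMIs in distal ciliated epithelium (19.2, 19.4 and 17 CPM), and its next class, fibroblasts, was at 0.248 ± 0.0866 CPM. Nrp1 did not separate blood endothelium (716 ± 30.7 CPM), pericytes (706 ± 208 CPM) and fibroblasts (678 ± 18.9 CPM). It was at 3.52 ± 0.37 CPM in non-ciliated epithelium. Nrp2, which also serves lymphatic growth factors, was at 361 ± 118 CPM in lymphatic endothelium (n = 2) and 304 ± 63.1 CPM in blood endothelium.

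Ntn1, which encodes netrin 1, was at 736 and 537 CPM in lymphatic endothelium against 78.4 ± 26.7 CPM in fibroblasts. Its receptor gene Unc5b was also highest in lymphatic cells, at 195 ± 39.3 CPM (n = 2) against 44 ± 7.06 CPM in blood endothelium. Unc5c was at 51.5 ± 17.6 CPM in fibroblasts against 11.3 ± 8.32 CPM in smooth muscle. Dcc stayed under 20 CPM in each of the 7 distal classes, with its highest mean at 8.82 ± 1.74 CPM in non-ciliated epithelium. Of the ephrin system, Efna1 (169 ± 23.2 CPM) was highest in blood endothelium, and Ephb4 (148 ± 52.4 CPM) and Efnb2 (132 ± 29.5 CPM), a receptor and ligand pair of vessels, were highest in lymphatic endothelium (n = 2). Efna5 was at 161 ± 18 CPM in ciliated epithelium against 105 ± 34.9 CPM in non-ciliated epithelium. Epha5 was at 33 ± 8.87 CPM in non-ciliated epithelium against 6.95 ± 9.83 CPM in lymphatic endothelium (n = 2).

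The 9 fibroblast markers lay, at the median over markers, at 0% to 0.661% of their fibroblast level in non-ciliated epithelium, 0.296% to 0.903% in ciliated epithelium and 0.729% to 7.6% in blood endothelium. In smooth muscle they lay at 10.9% to 14.6% in distal and 0% to 4.24% in proximal libraries, and their part in the muscle levels was not tested.

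The fibroblasts fell into 8 clusters, named by number and described by their leading genes. Cluster F0 (Inmt, Tcf21) held 32.2%, 16% and 17.5% of distal fibroblasts in libraries 1 to 3 and 33.3%, 36.4% and 55.6% of proximal ones in libraries 2 to 4. F1 (Pi16, Dkk2), F11 (Col7a1, Nrg1) and F13 (Ptn, Lin7a) were mostly distal, and F11 had 525 distal and 0 proximal cells. F19 (Dscam, Ramp3) held 1.38%, 29.3% and 11.3% of distal fibroblasts and 2.91%, 1.52% and 2.12% of proximal ones, so distal 1 lay below the proximal libraries. F2 (Ly6h, Prss23) was mainly a group 2 cluster, with 13.7% of the fibroblasts of distal 2 and 54.8% of those of proximal 2. F21 (Apod, Sgcz, Lamc3) held 6.08%, 46.2% and 27.9% of proximal fibroblasts and at most 0.432% of distal ones. F16 (Ube2c, Top2a) held 56 cells with leading cell division genes.

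In the distal libraries Slit2 and Sema3a split most of these clusters into a Slit2-high and a Sema3a-high set. Slit2 was at 872, 766 and 749 CPM in F0 and at 424 and 481 CPM in F2, the 2 distal libraries with at least 10 cells of that cluster. The means in F1, F11, F13, F16 and F19 lay between 108 CPM in F11 and 238 CPM in F16. Slit3 was at 618 ± 119 CPM in F0 and 47.3 ± 14.2 CPM in F19. Its 302 and 179 CPM in F2 overlapped F11, at 186, 130 and 129 CPM. Sema3a ran the other way from Slit2, at 101, 80.5 and 123 CPM in F0 against 591 ± 79 CPM in F1, 461 ± 15.6 CPM in F11, 511 ± 87.1 CPM in F13 and 658 ± 277 CPM in F19. No library of F0 reached the lowest value of F1, F11, F13 or F19. Slit3 and Sema3a were themselves among the 10 leading genes of F0 and F1.

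Receptors also differed between the clusters. Robo1 was at 91.1 ± 14.5 CPM in F0 and 52.7 ± 16.9 CPM in F2 (n = 2), against 219 to 296 CPM on average in F1, F11, F13 and F19. Epha3 was at 71.2 ± 15.1 CPM in F0 and 65.7 and 65.3 CPM in F2, and its means in F1, F11, F13, F16 and F19 were at most 18 CPM. Unc5c was at 91.6 ± 22.2 CPM in F0 against 23.3 ± 1.87 CPM in F11. Ephb1 was at 64 ± 27.4 CPM in F19 and 49.8 ± 21.8 CPM in F2, against 5.35 ± 2.71 CPM in F0. Nrp1 was between 540 ± 54.5 CPM in F0 and 953 ± 124 CPM in F2 (n = 2), apart from the dividing cluster F16 at 257 ± 143 CPM and F21, at 1110 CPM in the 10 cells of distal 1. In the mostly proximal cluster F21, those 10 distal cells had Robo1 at 554 CPM and Sema3a at 717 CPM, on 17 and 22 UMIs. In its proximal cells Robo1 was at 202, 592 and 550 CPM, Sema3a at 364, 637 and 626 CPM and Slit2 at 0, 68.3 and 45 CPM in proximal libraries 2 to 4.

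**Figure D2:**
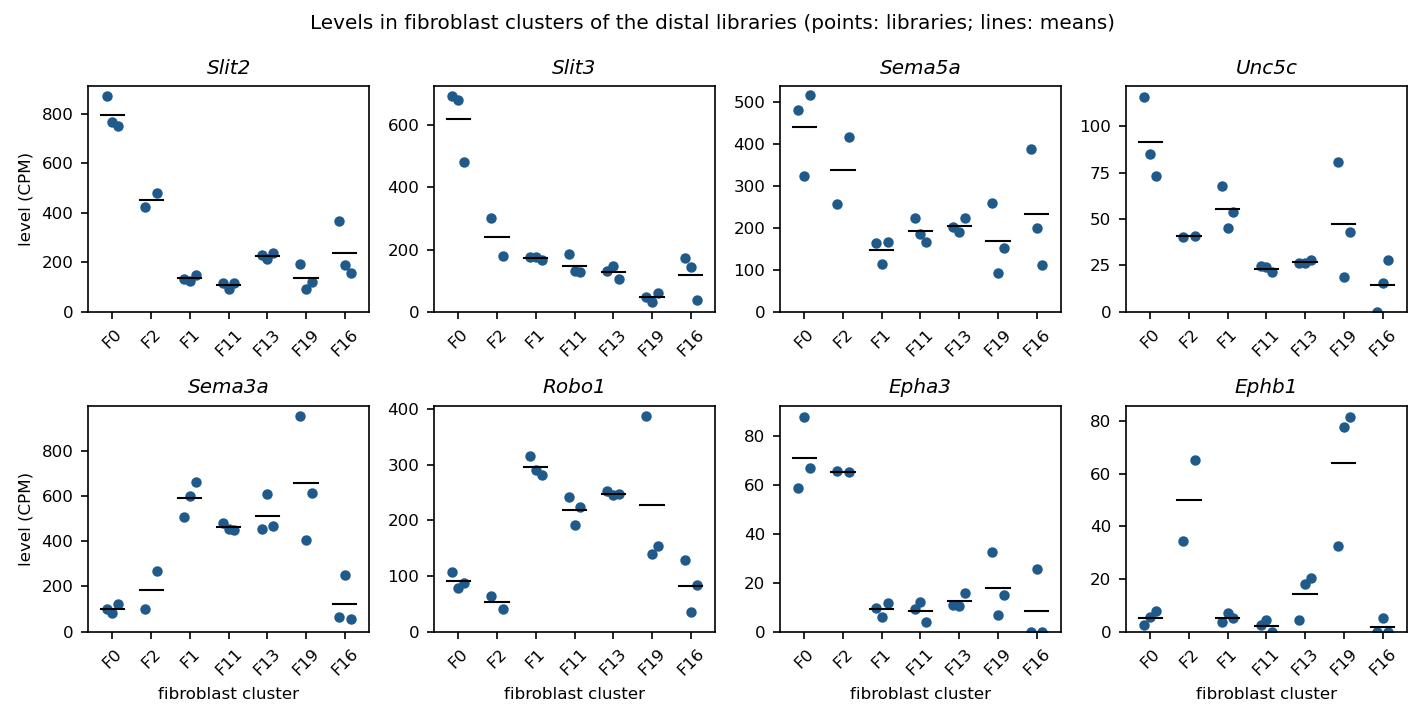
Levels in CPM (y axes) of 8 genes in 7 fibroblast clusters of the distal libraries (x axes), F21 not drawn, with a point per library of at least 10 cells and a line at the mean. Among the clusters drawn, the means of Slit2 and Epha3 are highest in F0 and F2. Those of Sema3a and Robo1 are lower in F0 and F2 than in F1, F11, F13 and F19.

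The study's design compares the distal with the proximal section. In the whole fibroblast class, 53 of the 69 genes had enough counts to be tested by edgeR's quasi-likelihood test on counts summed per library. At an adjusted p (Benjamini-Hochberg over all genes tested) under 0.05, 4 were higher and 1 lower in proximal fibroblasts, or 9.43% of the members tested. Of all 13737 genes 2.68% were called, 1.86% as higher and 0.815% as lower. At an unadjusted p under 0.05 there were 17 members and 2250 of all genes. The median log2 fold change, proximal minus distal, was 0.38 over the members and -0.03 over all genes. A difference in a summed class cannot tell more expressing cells from more RNA per cell.

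Dcc, the netrin receptor, rose in proximal fibroblasts. It was at 3.98, 1.65 and 3.62 CPM in distal libraries 1 to 3 and at 26.3, 31.7 and 51.4 CPM in proximal libraries 2 to 4, from 74 and 108 UMIs. The groups did not overlap, and the log2 fold change was 3.47 ± 0.40 (SE, adjusted p = 0.00353, edgeR). The call held without any single library, with adjusted p from 0.000414 to 0.0227.

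The other 3 genes that rose were Eph receptors. Epha6 was at 0.643, 0.33 and 0.63 CPM in the distal and at 4.25, 10.6 and 25 CPM in the proximal libraries, a log2 fold change of 4.33 ± 0.68 (edgeR adjusted p = 0.0131) from 13 and 30 UMIs. Ephb3 was at 3.34, 3.3 and 4.25 CPM against 10.4, 21.2 and 25 CPM, a log2 fold change of 2.07 ± 0.39 (edgeR adjusted p = 0.0253). Epha5 was at 1.29, 0.577 and 0.945 CPM against 3.48, 10.6 and 11.1 CPM, a log2 fold change of 2.67 ± 0.59 (edgeR adjusted p = 0.0406) from 23 and 18 UMIs. Of those 18 proximal Epha5 UMIs 13 lay in cluster F21, at 25.2, 22.8 and 31.5 CPM, and F0 held 1. Cluster F21 had 10, 5 and 1 cells in the distal and 23, 61 and 171 cells in the proximal libraries. In all 3 genes every proximal library lay above every distal library, and proximal 2 was the lowest of the proximal ones. The Epha6 call was lost without distal 1 (adjusted p = 0.061) or without proximal 3 (0.0606). The calls of Ephb3 and Epha5 were lost without any library other than proximal 2, with edgeR adjusted p of 0.0665 to 0.107 and of 0.106 to 0.155.

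Sema3e was the member that fell. It was at 5.78, 3.13 and 5.36 CPM in distal fibroblasts and at 0.386, 0 and 0 CPM in proximal ones, 117 UMIs against 1. The pooled proximal to distal ratio was 0.0659, with a 95% counting interval of 0.00166 to 0.375. The edgeR adjusted p was 0.0474, and it was between 0.0632 and 0.0976 in the 4 fits without 1 library that still tested the gene (without distal 2 or without any proximal library). In the count over the class, 1 member passed without distal 1 or without proximal 3, 2 passed without distal 2, distal 3 or proximal 4, and 14 passed without proximal 2. In that last fit 25.5% of the members tested and 12.9% of all genes were called. The other fits called 0.313% to 3.43% of all genes.

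**Figure D3:**
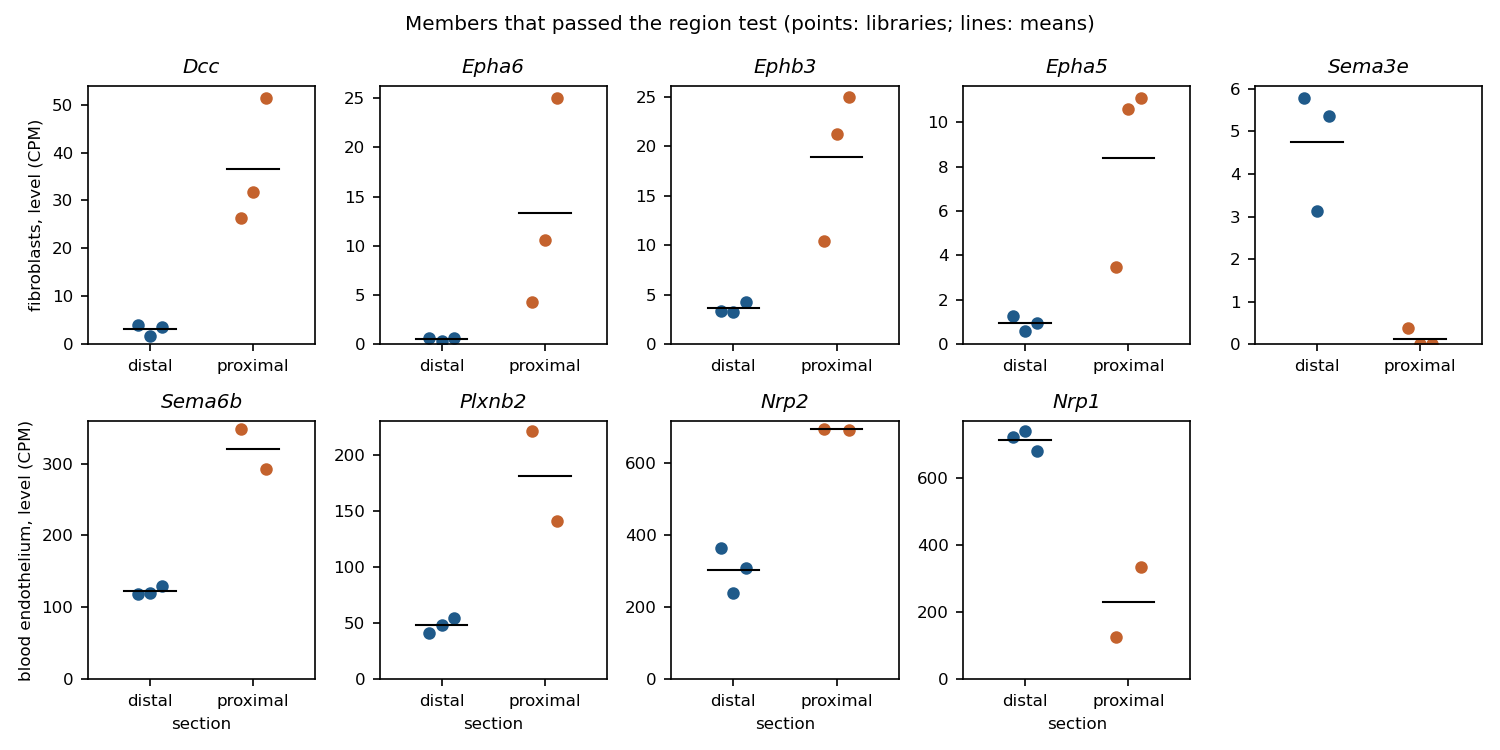
Levels in CPM (y axes) of the members that passed the comparison of sections (x axes) in fibroblasts (top) and blood endothelium (bottom), with a point per library and a line at the mean. In each panel the proximal points lie apart from the distal points, in genes chosen by the test on these same values.

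Distal 2 and proximal 2 carry the same group number in both sets of labels, and a term for that pair raised the number of fibroblast members called to 13 (10 higher, 3 lower). This was 24.5% of the members tested, and the same fit called 8.63% of all genes. The genes added were Unc5a (1.97), Sema3b (1.53), Unc5c (1.48), Ephb2 (1.29), Sema3c (1.05), Slit2 (0.89), Epha4 (-1.07) and Sema3a (-1.28), given as log2 fold changes. Without that term none of the 8 passed. Slit2 was at 411, 279 and 299 CPM in distal and 502, 698 and 888 CPM in proximal fibroblasts (0.88 ± 0.31, edgeR adjusted p = 0.166), and Sema3a at 352, 361 and 450 CPM against 71.5, 338 and 267 CPM (adjusted p = 0.193). In both genes the proximal libraries lay on 1 side of all distal libraries. With cluster F21 left out, 11 of 52 members passed (8 higher, 3 lower), or 21.2%, against 4.3% of all genes in that fit. They included 4 of the 5 genes named above, with Dcc at a log2 fold change of 3.79. The fifth, Epha5, then had too few UMIs to be tested.

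Cluster F0, the only fibroblast cluster with at least 10 cells in each of the 6 libraries, was compared by itself. Of 34 members tested, 3 were higher in proximal cells and 0 lower, or 8.82%, against 1.36% of 9666 genes called in either direction and 1.08% called higher. Dcc was at 9.58, 4.5 and 7.19 CPM in distal and 14.9, 58.2 and 72.5 CPM in proximal F0 cells (log2 fold change 2.32 ± 0.51, edgeR adjusted p = 0.0335). Ephb3 was at 5.16, 4.5 and 4.79 CPM against 20.3, 29.1 and 21.5 CPM (2.05 ± 0.43, adjusted p = 0.0275). Plxna4 was at 11, 11.5 and 8.78 CPM against 37.8, 0 and 107 CPM (2.45 ± 0.42, adjusted p = 0.0123), so that proximal 3 lay below the distal libraries. Slit2 in F0 had a log2 fold change of 0.41 ± 0.35 (adjusted p = 0.69), with 716, 1630 and 1510 CPM in the proximal libraries. Epha6 had 6 distal and 23 proximal UMIs in F0 and Epha5 had 5 and 1, both too few to test. The Dcc call in F0 was lost without any library other than proximal 2, with log2 fold changes of 1.32 to 2.67 and edgeR adjusted p of 0.0894 to 0.439. That of Ephb3 was lost without any library other than proximal 4 (0.0705 to 0.203), and by DESeq2 (0.101), and that of Plxna4 without distal 1 (0.0905) or distal 2 (0.058). The term for group 2 added Unc5c (1.32) and called 3.05% of all genes. Leaving out distal 1 or distal 2 left 0 members called in F0, leaving out proximal 3 left 1, and leaving out proximal 2 gave 5. Those fits called 0.0107%, 0.139%, 0.162% and 12.9% of all genes.

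The other clusters gave few calls. In F2 0 of 31 members passed (0.0544% of 9199 genes were called, 6 members and 450 of all genes had an unadjusted p under 0.05, and DESeq2 called 0 members). The term for group 2 called 2, Dcc (3.53) and Sema5b (-2.22), or 6.45% of members against 1.83% of all genes. In F19 0 of 6 members passed by edgeR or DESeq2 and 0 had an unadjusted p under 0.05 (0.236% of genes were called, 0.118% in each direction). In F13, which rested on 13 and 25 proximal cells in 2 libraries, 1 of 35 members passed (2.86%, against 3.23% of 10915 genes called and 3.12% called lower). This was Sema3a, at 456, 611 and 466 CPM in distal and 0 and 174 CPM in proximal libraries (log2 fold change -3.01 ± 0.64, edgeR adjusted p = 0.00043), from only 4 proximal UMIs. All genes had a median of -1.25 in F13, and the call was lost without proximal 3 (adjusted p = 0.113) or proximal 4 (0.055).

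Smooth muscle could be compared in 3 distal and 2 proximal libraries, since proximal 2 held no such cells. Of 36 members tested 5 were higher and 5 lower in proximal muscle, or 27.8%. Of 9225 genes 13.1% were called, 4.81% as higher and 8.3% as lower. Slit3 was at 85.5, 28.5 and 53.7 CPM in distal and 824 and 692 CPM in proximal muscle, a log2 fold change of 3.17 ± 0.34 (edgeR adjusted p = 4.07e-17). Slit2 was at 658, 573 and 614 CPM against 118 and 346 CPM (-1.55 ± 0.44, adjusted p = 0.00634), and Sema5a at 512, 339 and 655 CPM against 58.9 and 214 CPM (-1.94 ± 0.48, adjusted p = 0.00123). Sema3a, Sema3c and Sema6a had 834, 1036 and 799 distal UMIs and 0 proximal UMIs. Against a floor of 3 counts over the proximal group they were at least 2.85-fold, 3.54-fold and 2.73-fold lower. The other genes that rose were Plxnd1, Efnb2, Sema3f and Epha2, on 15, 7, 5 and 5 proximal UMIs. Summed smooth muscle markers were 13400 to 20900 CPM in distal and 12400 to 14300 CPM in proximal muscle, fibroblast markers 2170 to 3150 against 412 to 2060 CPM, and pericyte markers 293 to 488 against 1120 to 1410 CPM. The part of these in the differences was not tested.

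The muscle class held 2 clusters in unlike proportions, and most of the same genes separated those clusters within the distal section. Sema3f did not, at 26.8 and 0 CPM in distal M12 and 2.98, 0 and 3.78 CPM in distal M10. M10 (Actg2, Cnn1, Myh11) had 1647 distal and 11 proximal cells, and M12 (Ctnna3, Pln, S1pr3) had 165 distal and 63 proximal cells. In distal cells Slit3 was at 20.2, 19.2 and 8.31 CPM in M10 and at 887 and 869 CPM in M12 (libraries 1 and 3). Slit2 was at 642 ± 62.3 CPM in M10 and 102 ± 9.6 CPM in M12, Sema5a at 519 ± 172 against 188 ± 3.44 CPM, and Sema3a at 127 ± 24.3 against 18.5 ± 12.3 CPM. Plxna4 was also higher in M10 (63.1 ± 9.14 against 4.87 ± 6.89 CPM), and Plxnb1 (63.2 ± 6.64 against 10.3 ± 3.11 CPM), Plxnd1 (75.4 ± 10.6 against 22 ± 3.61 CPM) and Epha2 (45.4 ± 12.6 against 0.252 ± 0.436 CPM) were higher in M12.

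Within M12, 0 of the 3 members that could be tested passed by edgeR and 1 had an unadjusted p under 0.05 (10.1% of 1228 genes were called). Slit3 in M12 was at 887 and 869 CPM in distal and 929 and 775 CPM in proximal libraries, a log2 fold change of -0.21 ± 0.32 (edgeR adjusted p = 0.723), and Sema5a had -0.53 ± 0.56 (adjusted p = 0.577). The third, Nrp1, was at 161 and 326 CPM in distal and 0 and 55.4 CPM in proximal M12 cells, from 90 and 3 UMIs (-2.38 ± 0.78, adjusted p = 0.0559). Slit2, not tested, was at 95 and 109 CPM against 133 and 221 CPM. Fits of the muscle class without proximal 3 or without proximal 4 leave 1 proximal library. In both fits the number of members called and the share of all genes called were lower than in the main fit. The calls of Slit3 (adjusted p = 0.0612), Plxnd1 (0.992), Sema6a (0.13), Sema3c (0.143) and Sema3a (0.144) were lost without proximal 4, those of Slit2 (0.08) and Sema5a (0.0819) without proximal 3, and those of Efnb2 (0.0853 to 0.574), Sema3f (0.214 to 0.361) and Epha2 (0.0667 to 0.524) without either, all by edgeR.

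**Figure D4:**
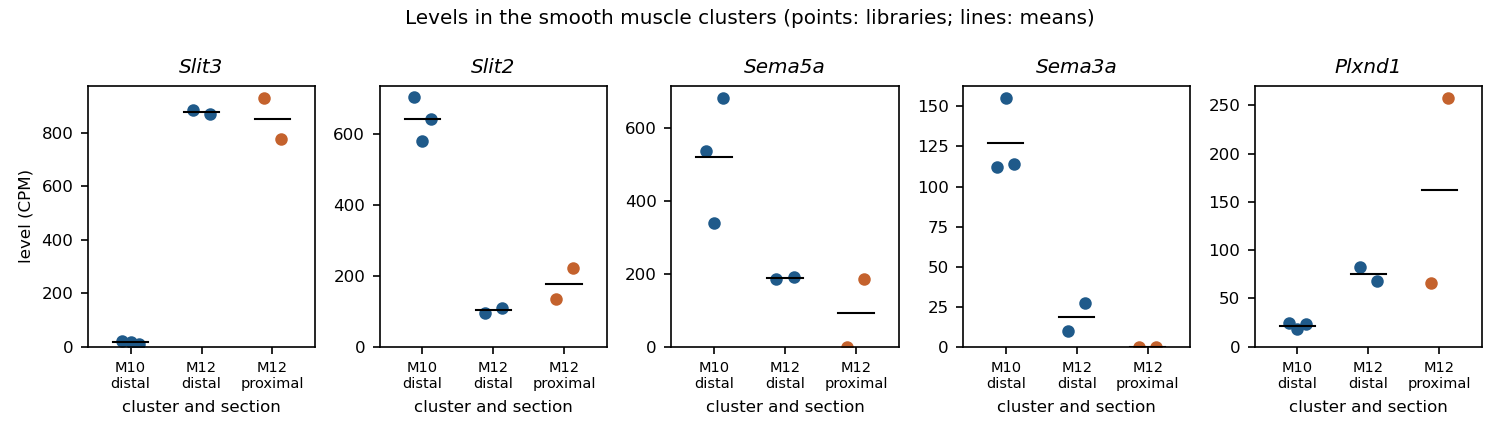
Levels in CPM (y axes) of 5 genes in distal cells of muscle clusters M10 and M12 and in proximal cells of M12 (x axes), with a point per library of at least 10 cells and a line at the mean. Slit3 is at 20.2 CPM or less in M10 and between 775 and 929 CPM in M12 of both sections.

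Blood endothelium was compared in the same 3 distal and 2 proximal libraries, with 34 and 56 proximal cells. Of 21 members tested 3 were higher and 1 lower in proximal cells, or 19%. Of 4150 genes 8.41% were called, 3.78% as higher and 4.63% as lower. The neuropilins moved in opposite directions. Nrp1 was at 724, 741 and 682 CPM in distal and 126 and 336 CPM in proximal endothelium (log2 fold change -1.51 ± 0.35, edgeR adjusted p = 0.022). Nrp2 was at 365, 239 and 308 CPM against 695 and 693 CPM (1.10 ± 0.27, adjusted p = 0.0303). Sema6b rose from 118, 120 and 130 CPM to 348 and 292 CPM (1.28 ± 0.28, adjusted p = 0.0195), and Plxnb2 from 40.7, 47.8 and 54.7 CPM to 221 and 141 CPM (1.77 ± 0.42, adjusted p = 0.0265). None of the 4 overlapped between the sections, but neither did several members that were not called, among them Plxnd1 and Plxna4.

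Robo4 did not pass, at 227, 167 and 233 CPM against 474 and 357 CPM (0.84 ± 0.29, edgeR adjusted p = 0.0939). Endothelial markers summed to 5580 to 6170 CPM in distal and 7360 CPM in both proximal libraries, with all 8 detected. Pericyte markers summed to 191 to 679 CPM in distal and 0 to 43.3 CPM in proximal endothelium, with 4 to 7 of the 7 at 0 in the latter, and T and NK cell markers to 9.12 to 29.9 against 158 to 206 CPM. The part of these other cells in the 4 differences was not tested. With distal 1 or proximal 3 left out 0 of the 4 passed (adjusted p from 0.0594 to 0.0816 and from 0.0915 to 0.124), and without proximal 4 only Nrp1 did.

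In non-ciliated epithelium 0 of 39 members passed, against 3.33% of 12691 genes (2.45% higher, 0.883% lower). At an unadjusted p under 0.05 there were 10 members and 2188 of all genes. DESeq2 called 5 members (12.8%, against 11.7% of all genes). The term for the group 2 libraries called 7 (6 lower, 1 higher), or 17.9% of members against 11.8% of all genes. Slit2 was at 59.8, 21.4 and 61 CPM in distal and 5.67, 4.32 and 17.4 CPM in proximal cells (log2 fold change -2.37 ± 0.58, edgeR adjusted p = 0.0544, and -2.27, adjusted p = 0.00346, with the term). Sema3g was at 17.9, 5.85 and 23.2 CPM against 0 in all 3 proximal libraries, 420 UMIs against 0, and so at least 8.91-fold lower against a floor of 3 counts over the group (adjusted p = 0.0544, and 0.00422 with the term). Sema6a was at 91.8, 69.3 and 122 CPM against 21.3, 60.5 and 36.4 CPM (-1.51 ± 0.42, adjusted p = 0.0775, and 0.00842 with the term). Slit2, Sema3g and Sema6a each had every proximal library below every distal one.

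Epha5, Ephb2 and Efna3 were the other genes called lower with the term for group 2, and Epha2 was called higher. Epha5 was at 33, 24.1 and 41.8 CPM against 8.51, 0 and 17.4 CPM (-1.79 ± 0.55 and edgeR adjusted p = 0.11 without the term). Epha2 was at 10.6, 2.13 and 8.32 CPM against 1.42, 77.8 and 36.4 CPM, so proximal 2 lay below the distal range. The count was 10 without proximal 2, or 21.7% against 21.6% of all genes, and 0 without any other library.

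The non-ciliated class was made of different clusters in the 2 sections. E15 (Penk) held 81 and 80 of the 89 and 144 cells of proximal 3 and 4, and E16 (Crabp2) 84 of the 276 cells of proximal 2. With E15 and E16 left out, 0 of 45 members tested passed by edgeR and 9 had an unadjusted p under 0.05. That fit also lost proximal 3, whose few remaining cells lay below the minimum for a sum. It therefore cannot tell the effect of leaving out the clusters from that of the lost library. In distal cells Slit2 was at 119 CPM in E1, 84.4 in E6 and 76.6 in E9 on average and at most 25.4 CPM in the other non-ciliated clusters. E1, E6 and E9 together held 1054 distal and 2 proximal cells. Epha5 was at 70.8 CPM in distal E12 (Dcpp2), 49.9 in E13 (Gabrg3) and 46.3 in E9. The 40 proximal Epha2 UMIs of E15 were nearly all of the 42 of the class.

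Ciliated epithelium was tested in 3 distal libraries and in proximal 2 and 4, which had 23 and 32 cells. By edgeR 0 of 26 members passed, against 3.24% of 11771 genes (1.7% higher, 1.54% lower). At an unadjusted p under 0.05 there were 7 members and 2349 of all genes. DESeq2 called 3 members (15%, against 8.26% of all genes). The group 2 term called 2, or 7.69% of members against 6.05% of all genes. Efna5 was at 159, 179 and 143 CPM in distal and 0 and 73.7 CPM in proximal cells (-2.10 ± 0.62, edgeR adjusted p = 0.0831, and 0.0289 with the group 2 term). Sema3e was at 135, 97.7 and 91.4 CPM against 0 and 42.1 CPM (-2.32 ± 0.70, adjusted p = 0.0888, and 0.0335 with the term), from 684 and 4 UMIs. Both groups stood apart, on few proximal UMIs. Of the 23 proximal 2 cells 21 lay in cluster E3, a cluster of low depth, and in distal cells Sema3e was at 2.52 CPM in E3 and 184 CPM in E2 on average. Fits without proximal 2 or without proximal 4 leave 1 proximal library, and their calls are not counted here.

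Whether the section effect differed between fibroblasts and non-ciliated epithelium was tested directly in 1 fit with the library as a block. Of 61 members tested 7 differed, all with a higher proximal to distal difference in fibroblasts, against 1.79% of 15797 genes called in either direction, 1.17% as higher and 0.614% as lower. Slit2 differed by 3.40 ± 0.52 on the log2 scale (edgeR adjusted p = 0.00327), with 0.88 in fibroblasts and -2.37 in epithelium. Epha5 differed by 4.51 ± 0.69 (adjusted p = 0.00354), with 2.67 and -1.79, and Dcc by 3.63 ± 0.56 (adjusted p = 0.00386), with 3.47 and 0.14. Slit2, Epha5 and Dcc passed without any single library. The part of the unlike epithelial clusters of the sections in these differences was not tested. With the fibroblasts of cluster F21 left out, Epha5 did not pass (2.79, edgeR adjusted p = 0.198), nor did Efnb1 (1.89, adjusted p = 0.0615), while Slit2 (3.80) and Dcc (3.97) did. The others were Ephb2, Efnb1, Sema6a and Efna5. The count was 3 without distal 1, distal 3 or proximal 3 and 4 without proximal 4. Shares of all genes called in these fits are not given here.

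**Figure D5:**
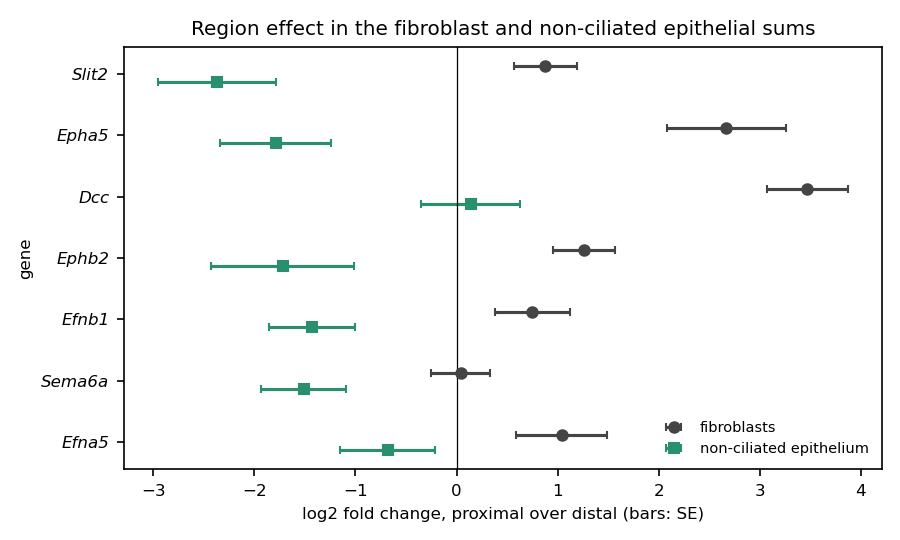
Log2 fold change, proximal over distal (x axis), of the 7 genes (y axis) whose section effect differed between fibroblasts (circles) and non-ciliated epithelium (squares), with bars for the SE of each separate fit. Every circle lies to the right of its square.

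A list of 61 other guidance genes, receptor partners and cytoplasmic signalling proteins, was read from the same fits. In fibroblasts 0 of 51 tested passed in either direction, against 2.68% of all genes. At an unadjusted p under 0.05 there were 10, against 2250 of all 13737 genes. In non-ciliated epithelium, where 2.45% of all genes rose and 0.883% fell, 1 of 42 rose and 0 fell. This was Vav3, a signalling protein downstream of Eph receptors, at 3.75, 7.09 and 4.84 CPM against 21.3, 38.9 and 72.8 CPM (2.92 ± 0.47, edgeR adjusted p = 0.0154). In F0 fibroblasts Vav3 was instead the only 1 of 40 that passed, falling from 139, 135 and 160 CPM to 39.2, 58.2 and 69.8 CPM (-1.55 ± 0.31, adjusted p = 0.0251). Of all genes in F0, 1.08% rose and 0.279% fell. In ciliated epithelium 0 of 41 passed, against 3.24% of all genes. At an unadjusted p under 0.05 there were 8, against 2349 of all 11771 genes.

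In smooth muscle 2 of 34 listed genes rose and 2 fell, where 4.81% of all genes rose and 8.3% fell. Enah, an actin filament elongation factor, was at 145, 100 and 87.3 CPM in distal and 765 and 478 CPM in proximal muscle (1.87 ± 0.37), and Mical2, an actin oxidising enzyme, at 48.8, 32.5 and 37.9 CPM against 177 and 247 CPM (2.05 ± 0.48, edgeR adjusted p = 0.00054). Fyn fell (-2.81 ± 0.80, adjusted p = 0.00691), and Cdon had 339 distal and 0 proximal UMIs. In blood endothelium 1 of 27 rose and 1 fell, where 3.78% of all genes rose and 4.63% fell. Rnd1, a GTPase bound by plexins, was at 202, 173 and 274 CPM against 727 and 704 CPM (1.63 ± 0.28, adjusted p = 0.00793), and Srgap1, a Slit and Robo effector, had 132 distal and 0 proximal UMIs. In F13 0.11% of all genes rose and 3.12% fell. Of the list 0 of 43 rose and 2 fell there, Dpysl3 (1100 distal and 0 proximal UMIs) and Arhgef12 (-2.33 ± 0.62, adjusted p = 0.0106).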

How the data were processed

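Droplet single-cell libraries of distal and proximal uterine tube were counted by the authors as UMI counts per gene and barcode, with Cell Ranger 7.0.0 per the file headers and Cell Ranger 6.1.2 on mm39 per the submitters' processing notes. The deposited counts are whole numbers, not normalized, and name genes by symbol.

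Barcodes with at least 500 UMIs, 250 genes and at most 20% mitochondrial UMIs were kept. The cells with the highest simulated-doublet scores were removed, in a share that grew with the cells of the library (818 cells in all). Cells were clustered with scanpy 1.11.5 on 2000 variable genes (30 components, 15 neighbours, resolution 1), leaving out the members and the pathway list, and the epithelium was clustered again on 20 components. A cluster was named where its marker list led by a score of at least 1.5 with at least 3 markers detected in 20% of cells. The comparison of leading genes with clusters of other classes was chosen after seeing the data. Clusters without a name held 339 cells.

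Counts were summed per library and class (at least 10 cells). CPM are summed UMIs scaled to a total of 1e6, as mean ± SD over distal libraries. Proximal and distal sums were compared with edgeR 4.0.16 (TMM, filterByExpr at 10 and 15 counts, quasi-likelihood test, Benjamini-Hochberg at 0.05), and with DESeq2 1.42.0 as an alternative. The procedure was tested on simulated data. Ratio intervals are exact binomial at 95% and cover counting error only. Promoters came from RefSeq GRCm38.p6, which held 59 of the 69 members.

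The numbers in titles and descriptions of the libraries differ for distal 3 (3 and 4). Both pair distal 2 with proximal 2, whose deviations from the group means correlated at 0.34 in fibroblasts and 0.57 in non-ciliated epithelium, against 0.11 and 0.31 for distal 3 with proximal 3 and 0.04 and 0.36 for distal 3 with proximal 4.

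Named genes were all members that passed, members at 20 CPM or more in a class, and up to 6 pathway genes per class by smallest p. Members and lists were chosen with earlier results of these data known.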

Additional observations from a re-analysis of the deposited data

Results flagged for a closer look

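For 7 of the genes the effect of the section differed between fibroblasts and non-ciliated epithelium in a direct test of that difference (edgeR interaction term, library as block). Slit2 differed by 3.40 on the log2 scale, Epha5 by 4.51 and Dcc by 3.63, and these passed without any single library, but Epha5 did not pass without fibroblast cluster F21 (2.79, adjusted p = 0.198). Distal epithelial Slit2 was highest in E1, E6 and E9, which held 1054 distal and 2 proximal cells. In E13 Slit2 was at 33.5, 21.4 and 21.3 CPM in distal libraries and 62.3 CPM in proximal 4, from 7 UMIs. E4, E5 and E7 had no proximal Slit2 UMI. The part of cluster make-up in the Slit2 difference was not tested. Ephb2 differed by 3.09 (adjusted p = 0.0159), with 1.26 in fibroblasts and -1.72 in epithelium, and Efnb1 by 2.40 (adjusted p = 0.0163), with 0.75 and -1.43. Sema6a differed by 1.86, with 0.04 in fibroblasts and -1.51 in epithelium, and Efna5 by 1.82. The Ephb2 call was lost without distal 1, distal 3 or proximal 3 (adjusted p from 0.0746 to 0.102), that of Efnb1 also without proximal 4 (0.0996 to 0.126 over these), and those of Sema6a (0.0835 to 0.146) and Efna5 (0.0505 to 0.292) without any library other than proximal 2.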

How the results depend on the processing

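Over the alternative settings, 228 of 317 values for the genes that passed kept their direction and call, 88 kept only their direction, and 1 reversed: Slit3 in muscle was at -0.21 in cluster M12 alone. Alternatives on clusters and on both group 2 libraries were chosen after seeing the data.

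The number of fibroblast members called was 5. It was 11 without cluster F21, 14 without both group 2 libraries (26.4%, against 14.6% of all genes), 11 with no filter on low counts and 1 once distal sums were thinned to proximal totals, and it ranged from 1 to 14 with 1 library left out. Of all genes, 4.3% were called without F21, 4.72% with no filter and 1.76% when thinned. With 1 library left out, 0.313% to 12.9% were called. In non-ciliated epithelium it was 0, and 11 without both group 2 libraries (24.4%, against 25.4% of all genes), 5 by DESeq2, 9 with no filter and 1 with doublets kept, with a range of 0 to 10. Of all genes, DESeq2 called 11.7%, the fit with no filter 4.77% and that with doublets 3.32%, with a range of 0.0662% to 21.6%. In ciliated epithelium it was 0, and 3 by DESeq2 and 3 with no filter. It stayed 0 without 1 distal library, with 0.0327% to 1.82% of all genes called. The fits without cluster E3 or without 1 proximal library leave a lone proximal library, and their calls are not counted here. In smooth muscle it was 10, and 0 in M12 alone and 3 when thinned. It was 9 to 12 without 1 distal library, with 12.7% to 14.2% of all genes called, and lower without either proximal library. DESeq2 gave no adjusted p for Sema3f, Efnb2 and Epha2. In blood endothelium it was 4, and 1 with no filter. It was 0 to 4 without 1 distal library, with 4.1% to 10.5% of all genes called, and lower than 4 without either proximal library. DESeq2 called 2 in F13 (40%, against 31% of all genes). Of all genes in ciliated epithelium, DESeq2 called 8.26% and the fit with no filter 3.89%. With no filter 2.51% were called in blood endothelium, and the thinned muscle sums called 51.6%. The ranges were 0 to 5 in F0, 0 to 2 in F2, 0 to 1 in F13, 0 to 0 in F19 and 3 to 7 for the difference of section effects. Shares of all genes are not given for the fits of the difference of section effects. Fits without 1 of 2 proximal libraries assume that the lone library varies like the others. The cause of these changes was not tested.

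With a replicate block, a term for the group 2 pair called 13 members in fibroblasts, 7 in non-ciliated epithelium, 2 in ciliated epithelium and 2 in F2. The numbers in the descriptions as a replicate block called 12 in fibroblasts and 3 in non-ciliated epithelium, and the numbers in the titles called 5 and 3. Of all genes, the description numbers called 4.48% and 4.33% in these classes, and the title numbers 3.77% and 4.72%. The title numbers could not be fitted for ciliated cells, muscle and blood endothelium, and no block could be fitted where proximal 2 had too few cells. Proximal depth limits what can be detected, since the proximal muscle sums held 16983 and 60674 UMIs.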

Other observations

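Mesothelial cells were not among the 7 classes described, although they were counted in as many libraries as lymphatic endothelium (2 distal and 1 proximal). They carried several of the same ligands and receptors. Plxna4 was at 777 and 546 CPM in distal libraries 1 and 3 and 1050 CPM in proximal 4, above its level in all 7 classes described. Efna5 was at 691, 485 and 621 CPM in the same libraries, Sema3c at 353, 246 and 292 CPM, Slit2 at 522, 307 and 650 CPM and Slit3 at 488, 436 and 460 CPM. The mesothelial class held 108 cells.

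In T and NK cells Sema4d and Sema4a lay above their levels in the 7 classes described. Sema4d was at 122, 201 and 132 CPM in distal and 153, 104 and 287 CPM in proximal T and NK cells, and at 134 ± 83.2 CPM in distal myeloid cells (SD, n = 3), against 1.14 CPM in distal fibroblasts. Sema4a was at 110, 123 and 117 CPM in distal T and NK cells. Plxnc1, with a distal mean under 5 CPM in each of the 7 classes described, was at 41 ± 17.3 CPM in distal T and NK cells. In distal myeloid cells it was at 38 ± 21.8 CPM. The 63 cells with granulosa or luteal markers, found only in distal libraries, had Robo2 at 222, 100 and 247 CPM and Sema3e at 123 ± 19.8 CPM.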
